A study of Mus musculus with 24 samples.

Results

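The replication-dependent histone genes encode the linker histone H1 and the core histones H2A, H2B, H3 and H4. They were taken as every gene of the deposited count table whose symbol follows the older mouse scheme Hist1h to Hist4h with a type letter, which selected 68 of 55341 genes. These genes are expressed mainly during S phase, when new nucleosomes are assembled on replicated DNA. Their mRNAs normally end in a conserved stem-loop, bound by the stem-loop binding protein SLBP, in place of a poly(A) tail, and the genes lie in clusters next to the histone locus body, where NPAT activates them. NIPBL, the protein depleted in this study, loads the cohesin ring onto chromatin together with MAU2.

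The cells were 3134 cells, a mouse mammary adenocarcinoma line, and every group carried an IPTG-inducible hairpin against NIPBL that had been introduced by transduction. The 12 groups of 2 libraries each combined 6 cell states with a 2 h exposure to 100 nM dexamethasone, a glucocorticoid, or to ethanol, its vehicle. With 1 mM IPTG for 3 days in charcoal-stripped serum there were cells with the NIPBL C1-C2 mutant, the C2 mutant, the C1 mutant, wild-type NIPBL (WT) and the empty vector (EV), all integrated by piggyBac. Without IPTG there were EV cells alone. The labels do not describe the mutations. Each construct was represented by 1 line, and there was no group with IPTG and no hairpin, so an effect of IPTG itself and the loss of NIPBL cannot be told apart. Library names ran in separate blocks for dexamethasone and ethanol, so dexamethasone and any difference between those blocks cannot be told apart. The second C1-C2 library in ethanol carries an ethanol title and a dexamethasone treatment label, and was grouped by its title. The design text calls the libraries biological replicates of sub-cultured cells, and p-values measure the spread between those cultures.

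Library totals ran between 32532858 and 72857880 counts. Levels are in CPM, a count scaled to a common library total, on TMM-scaled library sizes, and a gene is called at an adjusted p under 0.05 in edgeR's quasi-likelihood test over 16934 genes. Nipbl, the targeted gene, had 54.42 and 56.52 CPM in IPTG EV libraries with dexamethasone, against 151.2 and 154.1 CPM without IPTG, and 65.06 and 62.59 CPM in IPTG EV libraries with ethanol, against 185.9 and 176.6 CPM without IPTG. Nipbl was lower with IPTG under both treatments, and it stood at 48.05 to 73.32 CPM in the libraries with a construct. The epithelial marker sum was 0.5805 to 1.631 CPM with Epcam at 0 in all 24 libraries, while the mesenchymal sum was 6678 to 8849 CPM, so the line labelled as mammary adenocarcinoma lacked the defining epithelial transcripts. Among the mesenchymal markers Col1a1 was low, at 0.4003 to 2.051 CPM. Leukocyte markers summed to 9.317 to 14.56 CPM and endothelial markers to 0.04033 to 0.474 CPM. Most of the leukocyte sum was Cd68, at 7.517 to 11.43 CPM, with Lyz2 at 1.197 to 3.338 CPM. Ptprc was at 0 in 17 libraries and Cd3e in 23.

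The 68 genes comprised 6 H1, 19 H2A, 18 H2B, 12 H3 and 13 H4 genes. By symbol, Hist1 on chromosome 13 held 56 of them, Hist2 on chromosome 3 held 10, and Hist3 on chromosome 11 and Hist4 on chromosome 6 held 1 each. Hist1h2al lay apart at chr13:51202727-51203065, while the other Hist1 members lay between 21715763 and 23934851. Its counts are part of the Hist1 and H2A sums below. Of the 68, 66 were annotated as protein coding, 2 (Hist1h2aj and Hist1h2al) as pseudogenes, and 62 had a single exon. Coordinates are those of mm10. Many members are near copies of each other, and a median of 56.0% of a member's 50-base stretches also occurred in transcripts of another gene. Reads from such copies may have been shared or dropped between members, so counts of single copies are uncertain.

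The stem-loop that ends a histone mRNA is shown because it is the feature that sets these transcripts apart. A run of 16 bases, with 2 stem arms of 6 bases around a loop of 4, was found after the stop codon in 45 of the 51 members whose gene model extended at least 30 bases past it. Only runs that matched a fixed histone stem-loop pattern were searched for, so other forms would have been missed. The pattern also fixed many of the letters that the forms have in common. The 8 forms follow, with the stem arms in capitals and the loop in lower case.
Common form, 25 members: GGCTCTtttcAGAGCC
H4 form, 7 members: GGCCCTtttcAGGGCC
A-ending loop, 6 members: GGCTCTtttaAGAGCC
Hist2h4 and Hist1h4i: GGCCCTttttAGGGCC
Hist1h4j and Hist1h4b: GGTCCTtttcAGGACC
Hist1h4a: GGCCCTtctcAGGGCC
Hist1h3g: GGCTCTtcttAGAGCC
Hist2h2ac: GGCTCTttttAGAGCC
The GGCCCT stem was carried by H4 genes alone among these, and the common form by H1, H2A, H2B and H3 genes.

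Promoters of 61 members were matched in RefSeq (GRCm38.p6), as 250 bases before and 50 bases after the RefSeq start. On either strand, TATAAA occurred in 57.4% of them, against 14.2% of 27025 promoters, and CCAAT in 85.2%, against 37.9%. The octamer ATTTGCAT, known as a site of POU factors in H2B promoters, occurred in 19.7%, against 1.75%. It was found in 6 of 17 H2A and 6 of 16 H2B promoters and in none of those of H1, H3 or H4. CCAAT occurred in every matched H1, H2A, H2B and H3 promoter and in 3 of the 12 H4 promoters. The promoter of Hist1h2bb (chr13:23746484-23746783, plus strand), lower in dexamethasone in each cell state, is set beside that of Hist1h4i (chr13:22041313-22041612, minus strand), the member that changed most clearly with the C2 mutant. Motif matches are in capitals, and they are letters in a window, not shown to be sites.
Hist1h2bb: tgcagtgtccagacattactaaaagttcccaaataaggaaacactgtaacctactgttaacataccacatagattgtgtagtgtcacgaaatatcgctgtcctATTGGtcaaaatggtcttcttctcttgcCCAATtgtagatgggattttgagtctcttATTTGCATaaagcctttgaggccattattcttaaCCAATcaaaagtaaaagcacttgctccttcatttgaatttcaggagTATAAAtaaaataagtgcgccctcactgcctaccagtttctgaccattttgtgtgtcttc
Hist1h4i: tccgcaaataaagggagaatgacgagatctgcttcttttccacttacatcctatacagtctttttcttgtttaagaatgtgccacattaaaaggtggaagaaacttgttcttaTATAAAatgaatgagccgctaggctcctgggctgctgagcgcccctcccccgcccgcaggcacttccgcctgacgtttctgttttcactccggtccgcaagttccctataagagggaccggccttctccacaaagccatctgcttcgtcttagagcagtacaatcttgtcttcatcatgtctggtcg
The first held 1 TATAAA, 3 CCAAT (1 of them read on the other strand as ATTGG) and 1 octamer, and the second held 1 TATAAA.

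Of the 68 genes, 62 had enough counts to be tested. The others were at or near the limit of detection over 24 libraries, with 71 counts in all for the testis-type linker histone Hist1h1t, 37 for the testis-type Hist1h2ba, 15 for Hist3h2ba, 8 for Hist1h2aa, 5 for Hist2h2aa1 and 0 for Hist2h3c1. Summed over all members, the histone genes took 4609 to 6175 CPM per library, of which Hist1 made up 82.84 to 86.4%. Hist2 gave 8.356 to 9.948% and the single Hist4 gene 5.01 to 7.307%. By type the summed levels were 1102 to 1541 CPM for H1, 463.4 to 699 CPM for H2A, 691.9 to 992.4 CPM for H2B, 881.7 to 1201 CPM for H3 and 1403 to 1908 CPM for H4.

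Per kb of gene model, mean levels over the 24 libraries were highest for Hist1h4b (415 CPM per kb), Hist2h3b (395), Hist1h4k (379), Hist1h1b (361), Hist1h4d (323) and Hist1h2al (309). They were lowest among tested members for Hist1h2br (0.249 CPM per kb), Hist2h2be (0.706) and Hist1h4m (1.08). The libraries of a group differed by less than 1.5-fold in every group for 49 of the 62 tested members. Hist1h2aj, a pseudogene with 93.1% of its 50-base stretches shared, was the least stable, with 0.1411 to 19.33 CPM over the libraries and up to 32.83-fold between replicates. Its values are given here and support nothing further.

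**Figure D1:**
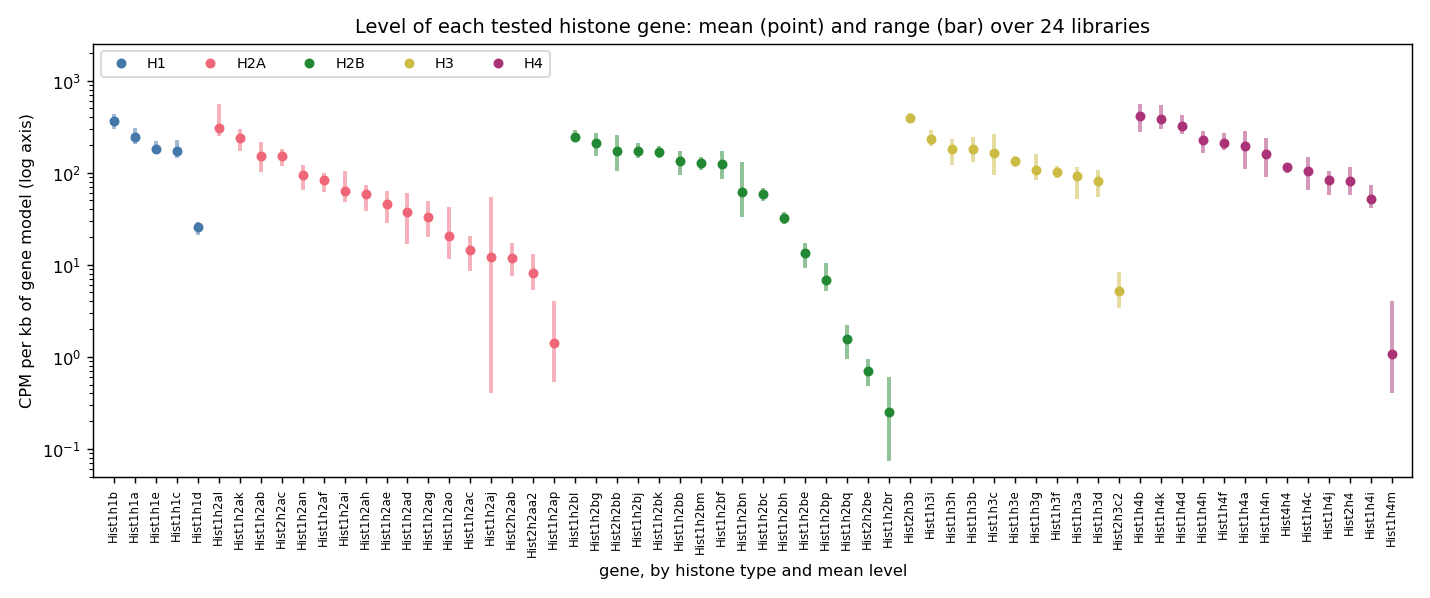
Mean CPM per kb of gene model (log axis) for each tested histone gene, ordered by type and level, with bars for the range over 24 libraries. Core histones of every type include genes above 100 CPM per kb, and the wide bar in H2A is Hist1h2aj.

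IPTG against no IPTG in EV cells asks how the histone genes stood when Nipbl was depleted. Histone mRNAs were lower with IPTG, most clearly in dexamethasone. There 37 of 62 members were lower and 1 was higher, against a background of 8.49% of all tested genes lower and 8.36% higher. In ethanol 14 were lower and 0 higher, against backgrounds of 6.24% and 7.16%. No other tool run called a higher member in ethanol, and 25 members had an unadjusted p under 0.05 in either direction. In these bulk libraries fewer cells in S phase and less histone RNA per cell cannot be told apart.

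The summed level of all members was 4698 ± 125.9 CPM in IPTG EV cells with dexamethasone, against 5813 ± 196.6 CPM without IPTG, and 5298 ± 102.5 CPM in IPTG EV cells with ethanol, against 6036 ± 48.08 CPM without IPTG (SD, n = 2 each). These are differences of -19.2% in dexamethasone and -12.2% in ethanol. Their sizes depended on the scaling and were smaller with plain library totals. The means were then 4666 against 5460 CPM in dexamethasone and 5448 against 6018 CPM in ethanol. By type the TMM-scaled sum differed in dexamethasone by -21.2% for H1, -26.4% for H2A, -17.5% for H2B, -15.3% for H3 and -18.0% for H4. With plain totals these were -16.6%, -22.1%, -12.8%, -10.4% and -13.3% in the same order. The median log2 fold change of the tested members was -0.32 in dexamethasone and -0.18 in ethanol, where the median of all genes was 0.00 and -0.01. Both IPTG libraries lay below both no-IPTG libraries for 52 of the 62 members in dexamethasone and for 44 in ethanol. They lay above both for 1 and 2 members. The share of all tested genes that separated in this way was not counted, so these counts have no background.

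By type, 5 of 5 H1, 10 of 17 H2A, 8 of 16 H2B, 6 of 11 H3 and 8 of 13 H4 genes were lower in dexamethasone, and in ethanol 2, 3, 4, 2 and 3 of them. The 14 members lower in ethanol were all among the 37 lower in dexamethasone, which is 100.0% of the ethanol list and 37.8% of the dexamethasone list. Over all tested genes 4.48% were lower under both treatments. The treatments share no library. The difference of the IPTG effect between the treatments passed the test for 0 members, with 8 at an unadjusted p under 0.05 and 0 in DESeq2, against 0.0177% of all genes higher and 0.154% lower.

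Hist1h1e, a main somatic linker histone and the H1 gene of highest level, had 332.3 and 328.4 CPM in IPTG EV libraries with dexamethasone, against 430.8 and 403.7 CPM without IPTG. The groups did not overlap, and the log2 fold change was -0.34 (SE 0.060, edgeR adjusted p = 2.40e-04). In ethanol it had 316.1 and 317 CPM with IPTG, against 364.5 and 381.2 CPM without IPTG, again with both IPTG libraries lower (-0.24, edgeR adjusted p = 0.00849). The ethanol call was lost without either IPTG replicate or without no-IPTG replicate 2, at values of -0.24 to -0.20. Hist1h1b, another linker histone, shares none of its 50-base stretches with other genes. It had 240 and 224.2 CPM with IPTG and dexamethasone, against 322.9 and 276.6 CPM without IPTG (-0.37, edgeR adjusted p = 5.08e-04). In ethanol it had 249 and 257.8 CPM with IPTG, against 292.2 and 308.7 CPM without IPTG (-0.25, edgeR adjusted p = 0.0191). This member without shared stretches was thus lower under both treatments. The other tested members without shared stretches were Hist1h1a and Hist2h2be. Hist1h1a was lower in dexamethasone, as every tested H1 gene was, while Hist2h2be, a gene of low level described below, was called higher there.

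Among core histones, the H2B gene Hist1h2bk had 72.34 and 72.22 CPM with IPTG and dexamethasone, against 93.36 and 93.3 CPM without IPTG. Its ethanol libraries had 77.72 and 71.83 CPM with IPTG, against 93.64 and 93.22 CPM without IPTG. The replicates lay close together and apart from the other group under both treatments, with log2 fold changes of -0.37 (edgeR adjusted p = 3.37e-05) and -0.32 (edgeR adjusted p = 2.79e-04). The H4 gene Hist1h4f had 70.74 and 73.25 CPM with IPTG and dexamethasone, against 105 and 97.16 CPM without IPTG (-0.49, edgeR adjusted p = 6.98e-06). Hist1h4k, also H4, had 105.8 and 111.9 CPM, against 170.4 and 142.5 CPM without IPTG (-0.52, edgeR adjusted p = 5.67e-05). Among the called members the H2A gene Hist1h2ao differed most in dexamethasone, with 9.07 and 10.36 CPM with IPTG, against 20.44 and 17.16 CPM without IPTG (-0.95, SE 0.145, edgeR adjusted p = 8.94e-05). Of their 50-base stretches, 74.2% were shared for Hist1h2bk, 39.5% for Hist1h4f, 71.5% for Hist1h4k and 93.5% for Hist1h2ao. The one member called higher was Hist2h2be, at 1.757 and 2.42 CPM with IPTG, against 1.268 and 1.396 CPM without IPTG (0.65, SE 0.209, edgeR adjusted p = 0.0348) and a gene of low level, and it was not called without IPTG replicate 2 or either no-IPTG replicate. Hist4h4, alone in its cluster, was not called, with log2 values of -0.12 in dexamethasone and -0.09 in ethanol.

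The count in ethanol rested on single libraries. It was 2 without IPTG replicate 1, 4 without IPTG replicate 2, 8 without no-IPTG replicate 1 and 4 without no-IPTG replicate 2. In dexamethasone it was 23 without IPTG replicate 1, 24 without IPTG replicate 2 and 23 without no-IPTG replicate 1.

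**Figure D2:**
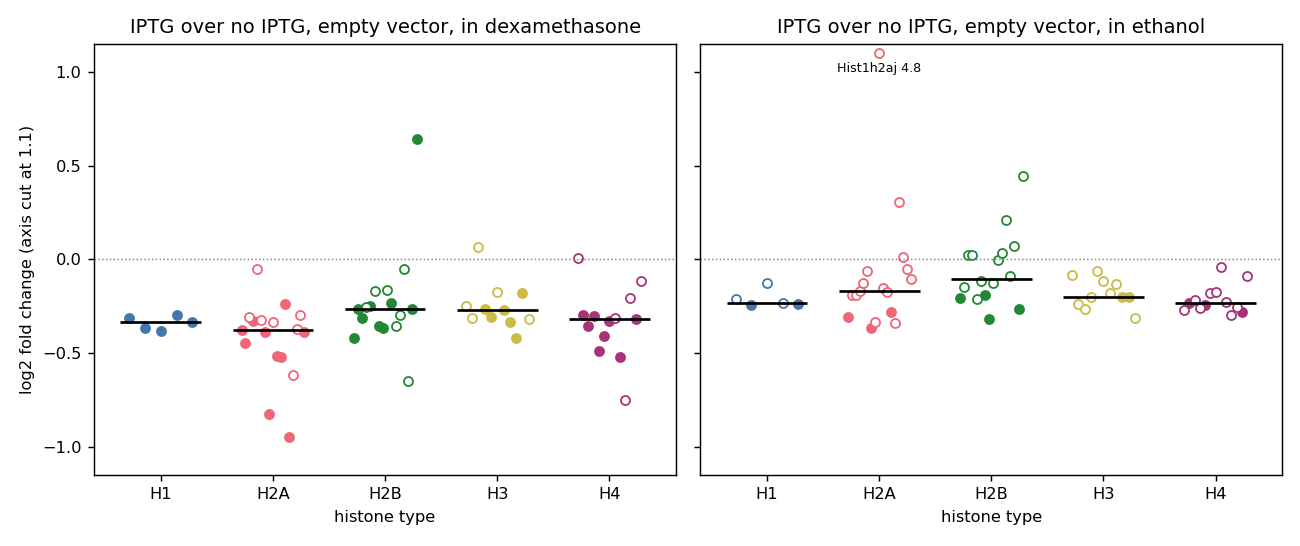
Log2 fold change of IPTG over no IPTG in EV cells for each tested member by histone type, in dexamethasone (left) and ethanol (right), with filled points for called members and a bar for the median of the type. Most points lie below 0 in both panels, 59 of 62 in dexamethasone and 53 of 62 in ethanol, and Hist1h2aj is drawn at the edge in ethanol.

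Genes of related function were read in the same comparison. Of 32 tested S phase and replication genes, 19 were lower with IPTG in dexamethasone and 20 in ethanol, and 0 were higher. Mcm3, a subunit of the replicative helicase, averaged 91.90 CPM with IPTG and dexamethasone, against 159.2 CPM without IPTG (-0.79, edgeR adjusted p = 1.553e-08), and 89.24 CPM with IPTG and ethanol, against 151.3 CPM without IPTG (-0.76, edgeR adjusted p = 5.828e-08). The DNA polymerase gene Pola1 and the helicase gene Mcm6 were lower under both treatments, at -0.27 and -0.30 in dexamethasone and -0.37 and -0.31 in ethanol. Of 20 G2 and mitosis genes, 3 were lower in dexamethasone and 4 in ethanol. The part of cell-cycle composition in the histone result was not tested.

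Of 27 genes for histone mRNA transcription and processing, 3 were lower and 1 higher in dexamethasone, and 5 were lower and 1 higher in ethanol. Ccne2, a cyclin that drives entry into S phase with CDK2, averaged 19.93 CPM with IPTG and dexamethasone, against 37.03 CPM without IPTG (-0.89, edgeR adjusted p = 2.097e-07). In ethanol it averaged 30.36 CPM with IPTG, against 60.43 CPM without IPTG (-0.99, edgeR adjusted p = 6.501e-08). Casp8ap2, a histone locus body protein, was lower in ethanol (-0.31). Of 20 histone chaperones, 4 were lower in dexamethasone and 5 in ethanol, among them Chaf1a, a subunit of the chromatin assembly factor that deposits H3 and H4 on new DNA (-0.27 and -0.31). Of 10 replication-independent variant genes, 2 were lower in dexamethasone (H2afx at -0.23 and H2afy at -0.15) and 0 in ethanol.

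WT cells with IPTG, set against EV cells without IPTG and averaged over treatments, had 23 members lower and 0 higher, against a background of 9.36% lower and 7.23% higher. In separate treatments 25 were lower in dexamethasone (background 6.41%) and 1 in ethanol (2.83%). Hist1h3i, an H3 gene, was lower by a log2 value of -0.29 (edgeR adjusted p = 1.04e-04), Hist1h2bk by -0.24 (edgeR adjusted p = 1.06e-04) and Hist1h2ao by -0.60 (edgeR adjusted p = 6.17e-04). Nipbl counts themselves did not return towards the no-IPTG level in WT cells, and whether the construct's transcript is counted under Nipbl was not tested.

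Dexamethasone against ethanol divided the members. Within 2 h some fell by a log2 value of 1 or more, others were not called, and a few rose. The numbers of members lower were 23 in C1-C2, 19 in C2, 23 in C1, 28 in WT, 25 in IPTG EV and 21 in no-IPTG EV cells, against backgrounds of 15.8%, 15.7%, 15.2%, 13.7%, 15.4% and 18.2%. The numbers higher were 7, 10, 4, 3, 4 and 9 in the same order, against 16.4%, 16.8%, 17.0%, 14.8%, 17.1% and 19.8%. With each library's trend in GC content and length removed, the members lower were 27, 29, 30, 35, 33 and 28 and those higher 2, 2, 3, 3, 4 and 6. The median log2 fold change was then -0.24, -0.22, -0.30, -0.37, -0.40 and -0.26 in the same order, against -0.12, -0.03, -0.17, -0.23, -0.28 and -0.06 without that correction. The summed level of all members differed between dexamethasone and ethanol by -8.46% in C1-C2, -3.60% in C2, -14.4% in C1, -14.4% in WT, -11.3% in IPTG EV and -3.69% in no-IPTG EV cells. Scaled by plain library totals, the difference was -6.74% in C2 and -9.28% in no-IPTG EV cells. The other states also differed more under that scaling. Dexamethasone and ethanol means were 4852 and 5495 CPM in C1-C2, 4841 and 5882 CPM in C1 cells. They were 4860 and 5810 CPM in WT and 4666 and 5448 CPM in IPTG EV cells. The sizes thus depended on the scaling, while C2 and no-IPTG EV cells had the smallest differences under both. In C2 cells the lower count was 11 without ethanol replicate 2, and the higher count was 3 without ethanol replicate 1 and 5 without dexamethasone replicate 2. In C1-C2 cells the higher count was 4 without ethanol replicate 1 and 4 without dexamethasone replicate 2.

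Of the 62 members, 18 were lower in all 6 states, 2 were higher in all 6, 18 were called in no state and 0 were called in both directions. Over all tested genes 9.22% were lower and 9.53% higher in all 6. The 18 lower members comprised 6 H2A (Hist1h2ab, ac, ad, ae, ag and an), 4 H2B (Hist1h2bb, be and bg with Hist2h2bb), 4 H3 (Hist1h3b, c, d and h) and 4 H4 genes (Hist1h4a, b, c and n), and no H1 gene. The octamer was present in 6 of the 18 promoters of these members and in 0 of the 16 matched promoters of members called in no state, in 4 of 20 among the members called in some states, and in 12 of 61 overall. Every match was in an H2A or H2B promoter, types that made up 10 of the 18 lower members, and the difference was not tested. The gene models of the 18 had a median GC content of 56.4%, against 60.3% in the members called in no state.

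The H4 gene Hist1h4b had 121.4 and 124.9 CPM in C1-C2 libraries with dexamethasone, against 186 and 196.3 CPM with ethanol. In C2 cells it had 141.6 and 143.6 CPM, against 197 and 220.6 CPM, and in C1 cells 114.9 and 122.3 CPM, against 210.1 and 211.6 CPM with ethanol. In WT cells it had 122 and 123.3 CPM, against 210.2 and 198.1 CPM with ethanol. All dexamethasone libraries of these states lay below all of their ethanol libraries. In IPTG EV cells it had 109.6 and 115.1 CPM, against 183.4 and 188.2 CPM, and without IPTG 136 and 140.4 CPM, against 222.9 and 213.6 CPM with ethanol. Over the 6 states its log2 fold changes ran between -0.83 and -0.55 (edgeR adjusted p at most 1.51e-08). Of its 50-base stretches, 75.9% are shared with other genes.

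Hist2h2bb, an H2B gene of the chromosome 3 cluster whose 50-base stretches are all shared, fell by log2 values of -0.91 to -0.77 over the states. Without IPTG it had 48.81 and 51.76 CPM with dexamethasone, against 91.02 and 96.93 CPM with ethanol. The 2 groups did not overlap. Hist1h4c, with 19.6% of stretches shared, had 71.72 and 67.86 CPM with dexamethasone and no IPTG, against 115 and 122.3 CPM with ethanol, and ran between -0.97 and -0.77. Hist1h4c ends at chr13:23698454, and the next tested member, the linker histone gene Hist1h1c, starts at chr13:23738808. The untested Hist1h1t lies closer, on the other side. Without IPTG, Hist1h1c had 351.6 and 275.9 CPM with dexamethasone, against 273.9 and 296.1 CPM with ethanol. It was called in no state, or in 1 (lower) with the GC and length trend removed. Hist1h2ac, with 14.1% of stretches shared, ran between -0.98 and -0.38, and Hist1h2ad, another H2A gene, between -1.25 and -0.70. The H3 gene Hist1h3c ran between -1.26 and -0.82. Hist1h2bg was lower in all 6 states, at -0.55 to -0.36, while Hist1h2bf, the next tested gene on the chromosome, was higher in 2 states and lower in none (0.11 to 0.47). With the GC and length trend removed, Hist1h2bf was called in 0 states (-0.11 to 0.26) and Hist1h2bg stayed lower in 6 (-0.76 to -0.62). The call of Hist1h2bf in C1 cells was also lost without C1 ethanol replicate 2 or either C1 dexamethasone replicate.

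The H3 gene Hist1h3g and the H4 gene Hist2h4 rose in all 6 states. Without IPTG, Hist1h3g had 85.24 and 69.54 CPM with dexamethasone, against 51.15 and 51.6 CPM with ethanol (0.59, edgeR adjusted p = 1.68e-06). Hist2h4, with 1.01% of stretches shared, had 188.7 and 163.3 CPM, against 115 and 118 CPM with ethanol (0.59, edgeR adjusted p = 3.01e-05). Neither gene's groups overlapped. Hist1h3g shares 54.1% of its stretches. Hist1h2ao was higher in 5 states, by up to 1.29 without IPTG, where it had 20.44 and 17.16 CPM with dexamethasone, against 7.167 and 8.26 CPM with ethanol. The libraries also differed by treatment in a trend with GC content. Genes of the upper GC quartile stood, relative to those of the lower, at 0.06 to 0.29 on the log2 scale in dexamethasone libraries and at -0.28 to -0.14 in ethanol libraries. With the trend in GC content and length removed, 24 members were lower and 0 higher in all 6 states, and the 18 were among the 24. Hist1h3g (0.15 to 0.34), Hist2h4 (0.25 to 0.48) and Hist1h2ao (0.19 to 0.99) were then each called higher in 5 states. The part of GC content in the rises was not tested further.

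**Figure D3:**
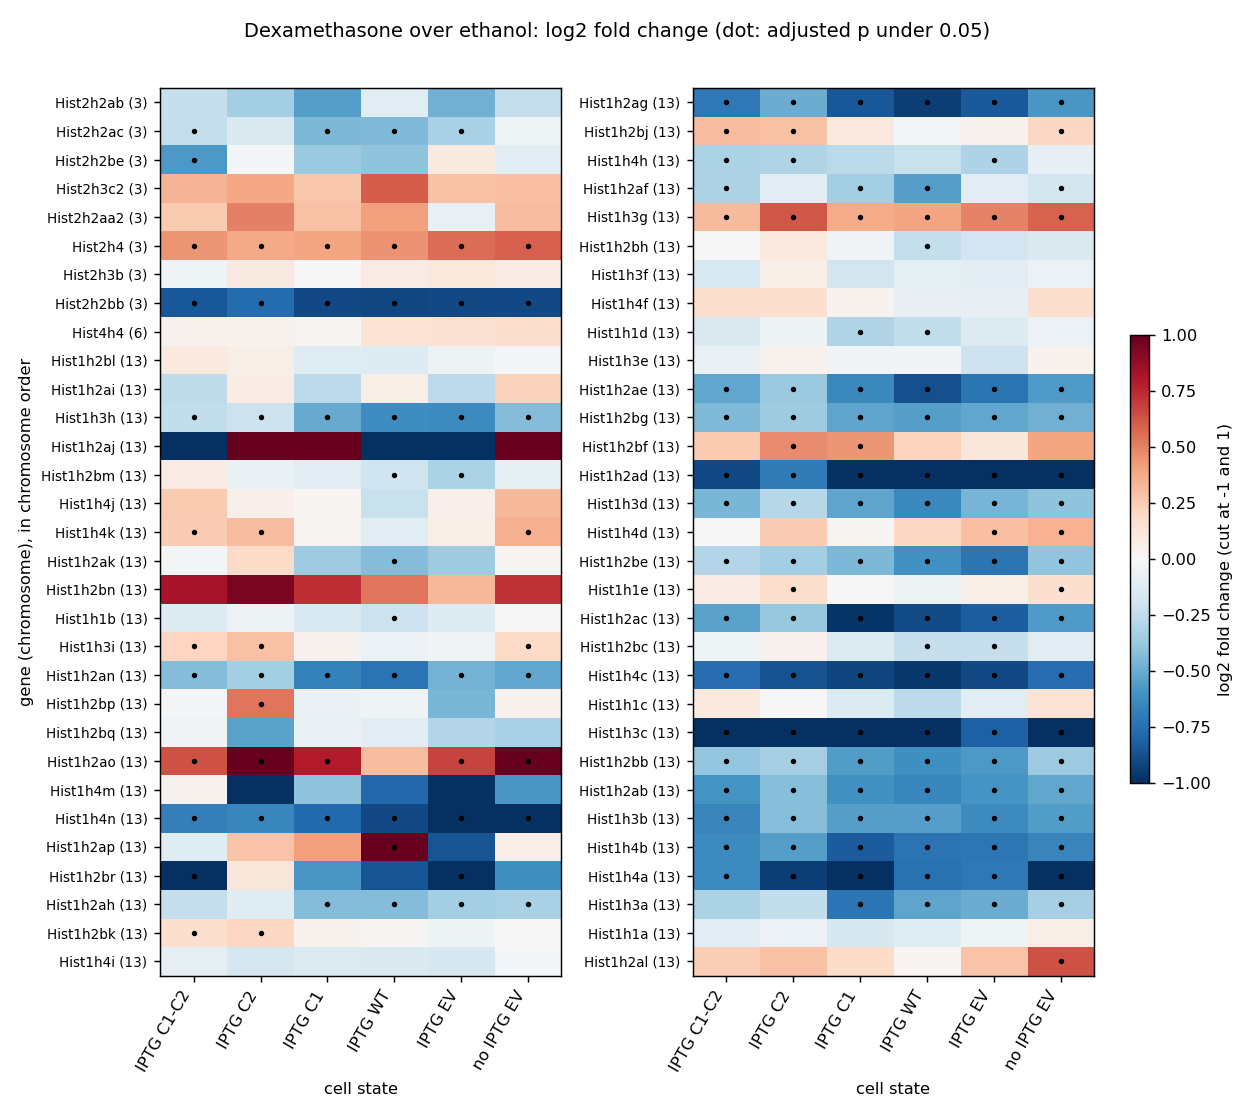
Log2 fold change of dexamethasone over ethanol for the 62 tested members (rows, in chromosome order, chromosome in brackets) in the 6 cell states (columns), with colours cut at -1 and 1 and a dot where the member was called. Rows blue with dots across all columns are the 18 members lower in every state, some in runs such as Hist1h3c to Hist1h4a and others beside pale rows.

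The histone members lay in runs along the chromosomes, here divided where neighbours were 100 kb or more apart. Of the 28 tested members at chr13:23531050-23764406, 13 were lower with dexamethasone in all 6 states, of 19 at chr13:21715763-21837530 3 were, of 5 at chr13:22035164-22043676 1 was, and of 8 on chr3:96219865-96270132 1 was. Genes of the S phase list did not share one direction, with 5, 4, 4, 2, 4 and 5 of 32 higher and 6, 6, 3, 4, 4 and 7 lower in C1-C2, C2, C1, WT, IPTG EV and no-IPTG EV cells.

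Each construct was set against EV with IPTG, averaged over treatments. The C2 mutant stood apart, with 30 members higher and 0 lower, against a background of 2.11% higher and 1.76% lower. The median log2 fold change was 0.21 with 60 of 62 above 0, and the median of all genes was 0.00. By type 3 of 5 H1, 8 of 17 H2A, 9 of 16 H2B, 4 of 11 H3 and 6 of 13 H4 genes were higher. The C1-C2 mutant had 0 members called in edgeR and in DESeq2, with 6 at an unadjusted p under 0.05, against a background of 0.307% higher and 0.130% lower. The C1 mutant had 0 called in edgeR, with 22 at an unadjusted p under 0.05, and 1 in DESeq2, 3 with the GC and length trend removed, 4 with a replicate block and 9 with no filter on low counts, against 0.685% higher and 0.750% lower. WT had 1 higher, Hist1h4b at 0.13 (edgeR adjusted p = 0.0333), against 4.19% higher and 4.45% lower. The WT count was 0 without either EV ethanol replicate or WT ethanol replicate 1, 2 without EV dexamethasone replicate 2 or WT dexamethasone replicate 1, and 4 without EV dexamethasone replicate 1. The C1 count was 2 without EV dexamethasone replicate 1 and 1 without EV dexamethasone replicate 2.

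The summed level of all members in dexamethasone was 4912 ± 15.56 CPM in C1-C2, 5655 ± 145.7 CPM in C2, 4920 ± 210 CPM in C1 and 4860 ± 98.29 CPM in WT cells, against 4698 ± 125.9 CPM in EV cells (SD, n = 2 each). In ethanol it was 5366 ± 322.4 CPM in C1-C2, 5866 ± 437 CPM in C2, 5748 ± 198 CPM in C1 and 5679 ± 195.2 CPM in WT cells, against 5298 ± 102.5 CPM in EV cells. C2 exceeded EV by 20.4% in dexamethasone and by 10.7% in ethanol, and the libraries of the groups did not overlap under either treatment. This was not particular to C2. The WT libraries also lay above those of EV under both treatments, though in dexamethasone only by 4790 against 4787 CPM at the nearest. C1 libraries lay above EV in ethanol, and C1-C2 libraries in dexamethasone. Both C2 libraries were above both EV libraries for 48 of 62 members in dexamethasone and for 32 in ethanol. The same counts in dexamethasone were 31 for C1-C2, 22 for C1 and 17 for WT. In ethanol they were 9 for C1-C2, 31 for C1 and 28 for WT, so there C2 was close to C1 and WT. The share of all tested genes that separated this way was not counted. Tested by treatment, 21 members were higher in dexamethasone (background 0.343%) and 1 in ethanol (0.124%). The difference between treatments was not tested.

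The H4 gene Hist1h4i was the clearest member. It had 46.19 and 47.73 CPM in C2 libraries with dexamethasone, against 31.15 and 31.19 CPM in EV, and 51.75 and 53.48 CPM in C2 libraries with ethanol, against 32.71 and 37.19 CPM in EV. All 4 C2 libraries lay above all 20 others, whose highest value was 43.16 CPM, and no other tested member showed this. The log2 fold change was 0.59 against EV (SE 0.055, edgeR adjusted p = 1.59e-07). Against the other constructs it was 0.63 over C1-C2 (edgeR adjusted p = 6.28e-08), 0.54 over C1 (4.18e-07) and 0.50 over WT (1.47e-06). Hist1h4i lies at chr13:22040636-22041362, and all 5 tested members of its run, between 22035164 and 22043676, were called higher in C2 than in EV. C2 was 1 line, so an effect of the mutant and of that line cannot be told apart.

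Other members differed less. Hist1h4b was higher by 0.26 (edgeR adjusted p = 2.81e-04), with 141.6 and 143.6 CPM in C2 libraries with dexamethasone, against 109.6 and 115.1 CPM in EV. Hist2h3b, an H3 gene whose 50-base stretches are all shared, was higher by 0.23 (edgeR adjusted p = 0.00109). It had 212 and 216.1 CPM in C2 libraries with dexamethasone, against 193.9 and 173.7 CPM in EV. In ethanol Hist2h3b had 201.6 and 200.8 CPM in C2 libraries, against 167.3 and 175 CPM in EV, so its groups did not overlap under either treatment. Hist1h2bb was higher by 0.27 (edgeR adjusted p = 0.00258) and Hist1h2bj by 0.24 (edgeR adjusted p = 0.00293). The count of 30 moved with single libraries. It was 13 without C2 ethanol replicate 2, 16 without C2 dexamethasone replicate 2, 18 without either of the EV ethanol replicates and 19 without EV dexamethasone replicate 2.

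Of the other lists, 17 of 32 S phase genes were higher in C2 than in EV (median 0.18), as were 7 of 20 histone chaperones, 7 of 20 G2 and mitosis genes, 1 of 27 processing genes (Ccne2) and 0 of 10 variant genes. Uhrf1, which recruits maintenance DNA methylation at replication, averaged 313.6 CPM in C2 cells, against 266.8 CPM in EV cells (0.23, edgeR adjusted p = 0.002509). Lig1, the replicative DNA ligase, averaged 150.0 CPM, against 131.2 CPM (0.19, edgeR adjusted p = 0.003708). Nasp, an H1 and H3-H4 chaperone, averaged 62.27 CPM, against 52.50 CPM (0.25, edgeR adjusted p = 0.006757). The part of these genes in the histone result was not tested.

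**Figure D4:**
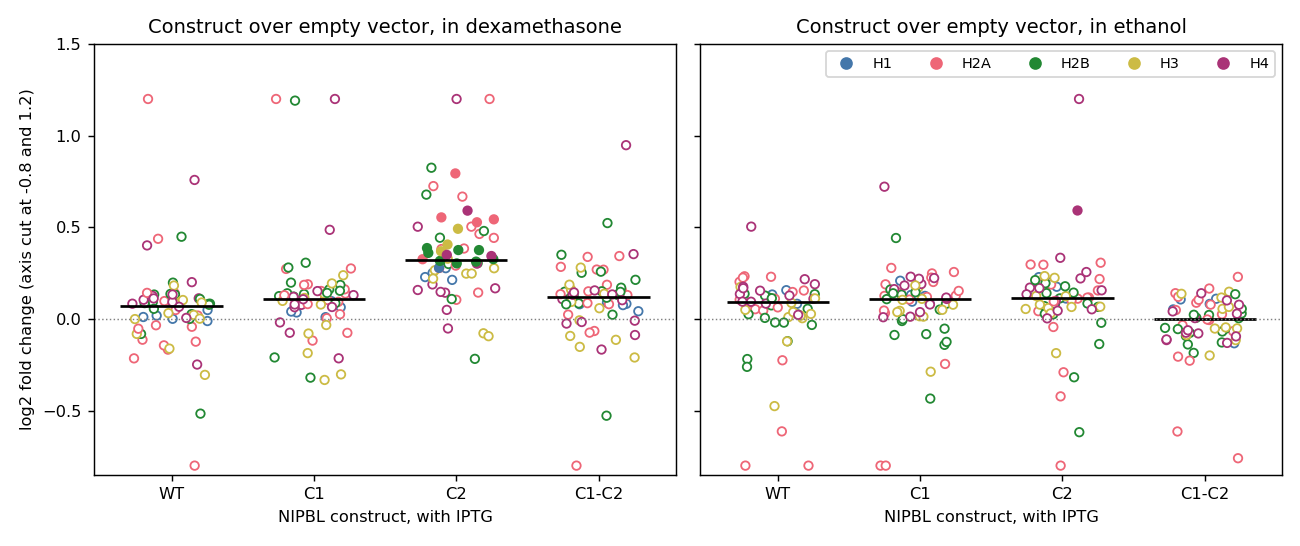
Log2 fold change of each NIPBL construct over EV with IPTG, for every tested member, in dexamethasone (left) and ethanol (right), with colours for the histone type, filled points for called members and a bar for the median. The C2 column in dexamethasone has 21 filled points and a median of 0.32, and in ethanol its single filled point is Hist1h4i. Values past -0.8 or 1.2 are drawn at the edge.

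Against WT with IPTG, the C2 mutant had 19 members higher and 0 lower, against a background of 6.87% higher and 5.98% lower. Tested by treatment, 23 were higher in dexamethasone (background 2.59%) and 1 in ethanol (1.02%). The count was 5 without C2 ethanol replicate 2, 6 without C2 dexamethasone replicate 2, 9 without WT ethanol replicate 2, 10 without WT dexamethasone replicate 1 and 29 without C2 ethanol replicate 1. Hist1h2ac had 33.93 and 33.9 CPM in C2 libraries with dexamethasone, against 22.5 and 24.31 CPM in WT, and 41.79 and 46.7 CPM with ethanol, against 46.73 and 40.42 CPM in WT. Its groups separated in dexamethasone and overlapped in ethanol, and the averaged value was 0.28 (SE 0.063, edgeR adjusted p = 0.00645). The C1-C2 mutant had 0 members called against WT, with 6 at an unadjusted p under 0.05 and 1 lower in DESeq2. Tested by treatment, 1 member, Hist1h2an, was higher in dexamethasone (0.27, edgeR adjusted p = 0.04494; background 0.673%) and 0 in ethanol (0.396%). The backgrounds were 2.67% higher and 2.19% lower for the averaged test. The C1 mutant had 0, with 2 at an unadjusted p under 0.05 and 0 in DESeq2, against 5.24% higher and 4.41% lower.

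Between mutants, C2 had 1 member higher than C1 (Hist1h4i), against 0.531% of all genes higher and 0.732% lower, and 3 higher than C1-C2 (Hist1h4i, Hist1h2bb and Hist1h4b), against 0.224% higher and 0.319% lower. The median log2 fold change was 0.13 over C1, with 60 of 62 above 0, and 0.16 over C1-C2, with 59 above 0. These counts moved with the processing. Over C1 they were 8 with no filter on low counts, 5 with a replicate block and 3 in DESeq2, and over C1-C2 they were 25, 11 and 6. Without C2 ethanol replicate 1 the counts were 4 over C1 and 6 over C1-C2. Over C1 the count was 2 without C1 ethanol replicate 2 or C1 dexamethasone replicate 1. Over C1-C2 it was 1 without C2 ethanol replicate 2 or any single dexamethasone replicate of C2 or C1-C2.

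**Figure D5:**
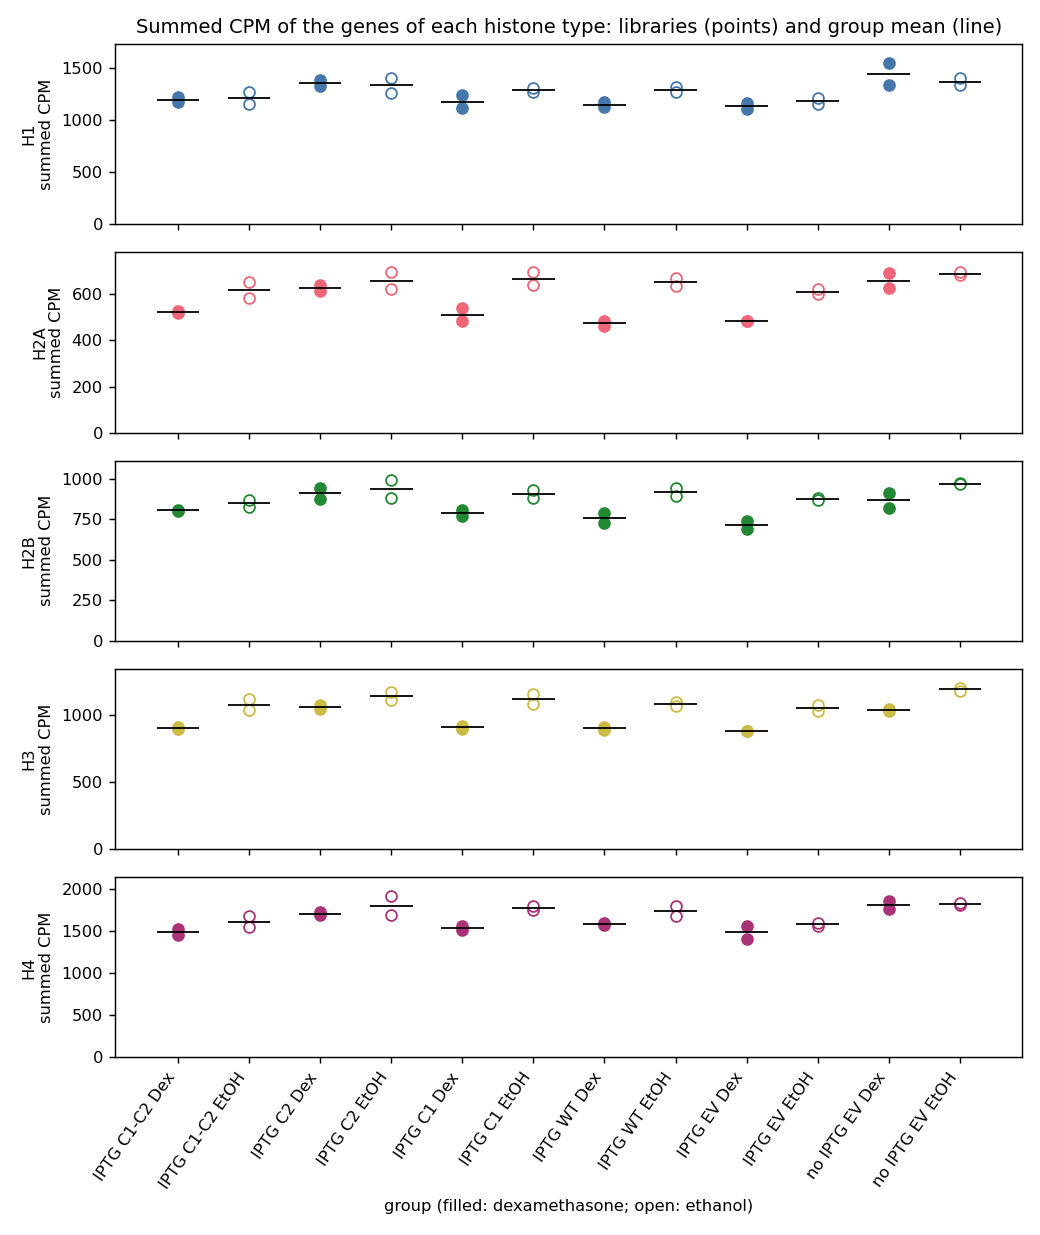
Summed CPM of the genes of each histone type in each library (points, filled for dexamethasone and open for ethanol) with the group mean as a line, for the 12 groups. In dexamethasone the means of the C2 and no-IPTG EV groups stand above the other states in every panel, while the ethanol groups lie closer together.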

How the data were processed

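Raw gene counts were deposited by the authors as 1 table of 24 libraries. Per the labels' protocols, libraries were made with a stranded total RNA kit with ribosomal RNA depletion, which keeps RNA without poly(A). Per the submitters' processing notes, bcl2fastq 2.20, cutadapt 1.18, STAR 2.7.0f and featureCounts (Subread 2.0.3) were used with mm10. The annotation release and the settings for strand and multi-mapping reads are not given in the sources used here. GENCODE M21 gene models held all 55341 names, 55298 with the same coordinates, and were used for GC content, stem-loops and shared stretches. No value column was left out (0 columns).

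From the counts, edgeR 4.0.16 in R 4.3.3 was fitted to all 12 groups (TMM factors, robust quasi-likelihood, 12 residual degrees of freedom, median biological coefficient of variation 6.43%), with Benjamini-Hochberg adjustment over 16934 genes after 38407 of low count were removed. There were 19 comparisons, and the 62 tested members were fitted with all other genes. The mean of a construct's difference in ethanol and in dexamethasone was tested, then each treatment alone. The procedure was tested on simulated data. No pair of replicates agreed within counting noise (chi-square per degree of freedom 5.91 to 22.7), which does not show that they came from independent cultures. Alternatives were DESeq2 1.42.0, RLE factors, plain totals, other filters, a replicate block, removal of a GC and length trend, leaving out the library whose labels disagree, and leaving out each replicate.

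The members and the lists were chosen with earlier results of these data known, and C2 against C1 and against C1-C2 were added after seeing the data. Values were given in full for the member of highest CPM of each type, up to 5 called members per direction and comparison of smallest adjusted p with at least 1 CPM, Hist3 and Hist4 members, Nipbl, and up to 4 called genes per list. Genes beside these were named after their values were seen.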

Additional observations from a re-analysis of the deposited data

How the results depend on the processing

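Counts of called members were most open to change where few members passed. Without a filter on low counts, counts higher were 5 for WT over EV, 9 for C1 over EV, 3 for C1-C2 over EV, 1 for C1 over WT, 30 for C2 over WT, 8 for C2 over C1 and 25 for C2 over C1-C2, with 2 lower for C1-C2 against WT, 1 lower for the difference of the IPTG effect and 0 higher with IPTG in dexamethasone. DESeq2 gave 0 higher with IPTG in dexamethasone, 1 for C1 over EV, 3 for C2 over C1, 6 for C2 over C1-C2 and 1 lower for C1-C2 against WT. With the GC and length trend removed, the C2 response to dexamethasone had 2 higher and 29 lower, the C1-C2 response 2 higher, and counts higher were 5 for WT over EV, 3 for C1 over EV, 1 for C1 over WT and 2 for C2 over C1, and Hist1h2bj in the C2 response changed sign to -0.0121. Without the library of disagreeing labels, C2 over C1 had 2. The cause of these changes was not tested.

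Same-numbered libraries deviated together with r over 0.1 in 11 of 15 pairs in ethanol (median 0.26) and 6 of 15 in dexamethasone (median 0.06). Most ethanol pairs thus shared some deviation. The main fit held no replicate block, so deviations shared by same-numbered libraries stayed in its spread. A replicate block gave 3 higher for WT over EV, 4 for C1 over EV, 1 for C1-C2 over EV, 1 for C1 over WT, 5 for C2 over C1 and 11 for C2 over C1-C2, and 16 lower with IPTG in ethanol, 38 in dexamethasone and 33 higher for C2 over EV.

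Leaving out 1 replicate gave 2 to 8 lower with IPTG in ethanol, 23 to 25 lower and 0 to 1 higher in dexamethasone, 13 to 36 higher for C2 over EV, 5 to 29 for C2 over WT, 1 to 4 for C2 over C1, 1 to 6 for C2 over C1-C2, 0 to 4 higher and 0 to 1 lower for WT against EV (4 without EV dexamethasone replicate 1), 0 to 2 for C1 over EV (2 without the same library), and 0 to 1 higher and 0 to 1 lower for C1 against WT. For the response to dexamethasone it gave 3 to 11 higher and 11 to 19 lower in C2 and 4 to 5 higher in C1-C2 cells. The 6 untested members had 0 to 71 counts over 24 libraries. For Hist2h3c1 and Hist2h2aa1, 100% of the 50-base stretches also occurred in transcripts of other genes. Why these counts were low was not tested.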
